A study of Homo sapiens with 12 samples.

Results

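The genes described here encode the hypoxia-inducible factors (HIF), the enzymes that sense oxygen for them, HIF target genes, and the enzymes and transporters of glycolysis. They were taken from a list of 43 gene symbols, and 40 of them had a probe set whose platform annotation gave that symbol alone, among 22465 genes measured in this way. CA9, SLC16A1 and SLC16A3 had no such probe set and have no value here. The list was chosen by gene function with earlier results of the same arrays known, so the counts below describe it and were not tested as a set.

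RT112 and 5637 are established human bladder cancer cell lines. CM272 is a small molecule that inhibits both the histone methyltransferase G9a and DNA methyltransferases. The groups used had 3 arrays each: 5637 treated with CM272 at its inhibitory concentration IC50, RT112 treated with CM272 at its IC50, and RT112 with no treatment. All cultures were kept in the same medium with serum, and no group was labelled as kept in low oxygen. How long the cells were treated is not stated in the labels. Nor do they say that replicates are independent cultures, and a p-value here reflects array-to-array spread that may be technical. Untreated 5637 arrays were left out because their rows do not line up with the other arrays (r = 0.0274 with treated 5637 over 67528 transcript clusters, against 0.966 over 2995 other rows). No response of 5637 can therefore be given.

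HIF is a pair of proteins, an oxygen-regulated alpha subunit (HIF1A or EPAS1) and the stable partner ARNT. When oxygen is present, prolyl hydroxylases of the EGLN family mark the alpha subunit, VHL binds the mark and the subunit is degraded. In low oxygen the pair binds hypoxia response elements and raises genes of glucose uptake, glycolysis, pH control, mitophagy and vessel growth. Much of this control acts on protein, which was not measured.

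On the deposited log2 scale the median gene changed by -0.57 in RT112 with CM272, and after each array was centred on its median by 0.08. Each change is therefore given on both scales, and a change is called only where limma gave an adjusted p below 0.05 in the same direction on both. The deposited shift also depended on level, with a median of -0.69 in bin 3 of 10 bins of genes by level and -0.19 in the brightest bin, where 14 of the 40 genes lay. After centring, the brightest bin had a median of 0.46. It was -0.00021 after quantile normalization and 0.05 after cyclic loess, and these scalings are given as alternatives. Many values of the treated arrays were identical between the 2 lines, in 7330 of 70523 probe sets for the median pair of arrays, while the median pair of treated and untreated RT112 arrays had 0 identical values. The treated lines also correlated with each other (r = 0.967 over transcript clusters) above treated with untreated RT112 (r = 0.940). In treated RT112, 6 of the 40 genes (15%) had 3 identical values, against 12.1% of all genes. In untreated RT112, 0 of all 22465 genes had 3 identical values. The median pair of treated RT112 arrays had 8491 identical values, and the median pair of untreated RT112 arrays had 12. Any step that differed between the treated and the untreated arrays cannot be told apart from CM272 itself.

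**Figure D1:**
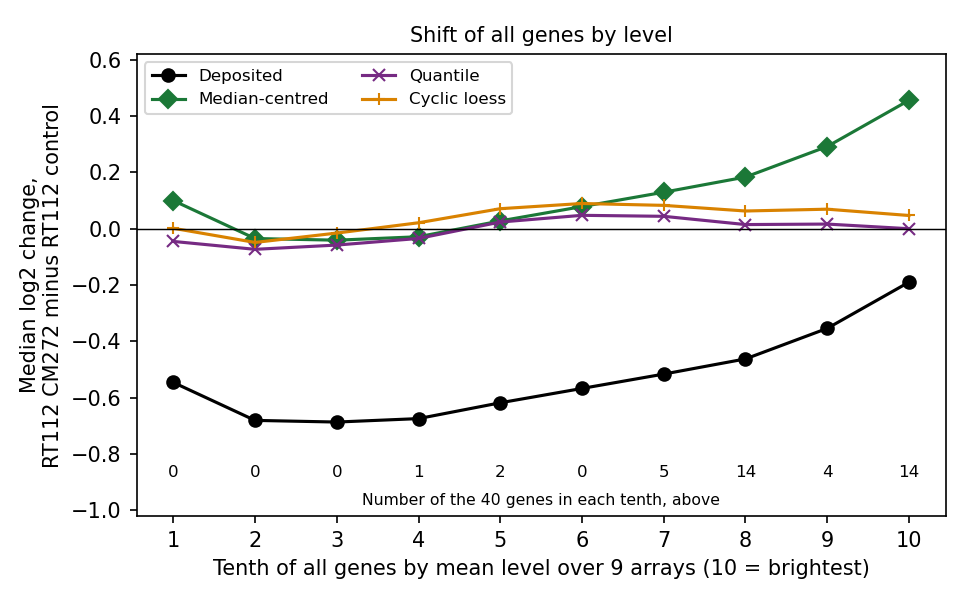
Median log2 change of all genes (RT112 CM272 minus RT112 control, vertical axis) in each of 10 equal bins of genes by mean level (horizontal axis), in 4 scalings, with the number of the 40 genes per bin printed below the lines. The deposited line lies below 0 in every bin and rises to -0.19 in the brightest one, and the centred line reaches 0.46 there.

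The cultures carried epithelial markers. All 9 urothelial and epithelial markers lay above the array median in untreated RT112, at 8.09 to 16.26, with 6.89 to 14.48 in treated RT112 and 7.45 to 13.32 in treated 5637. Leukocyte markers lay at 3.62 to 7.12 in treated RT112 and 3.77 to 7.44 in untreated RT112, where CD68 was the highest. Endothelial markers lay at 3.31 to 4.87 in treated RT112 and 3.41 to 4.89 in untreated RT112, and stromal markers at 3.70 to 5.34 in treated and 4.43 to 5.50 in untreated RT112. In treated 5637 leukocyte markers lay at 3.61 to 6.66, endothelial markers at 3.70 to 4.33 and stromal markers at 3.78 to 7.25. None of the 4 endothelial, 3 of 5 stromal and 2 of 6 leukocyte markers lay above the untreated array median of 5.07.

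In CM272-treated RT112 the genes of this pathway split. HIF1A itself, the glucose transporter gene SLC2A1 and the lactate dehydrogenase gene LDHA fell by more than 2-fold on both scales. The HIF target genes ADM, NDRG1, ANKRD37 and BNIP3L and the glycolytic genes TPI1 and ALDOC rose by more than 2-fold on both. In total 6 of 40 genes (15%) rose and 3 (7.5%) fell by at least 2-fold on both scales, against 2.86% and 2.64% of all genes. The 40 genes were brighter than most, 37 of them lying above the median level of all genes. All 9 genes with a 2-fold call were among these 37 (24.3%), against 9.55% called at 2-fold in either direction among all genes above that level. With no limit on size, 9 of 40 (22.5%) were called higher and 11 (27.5%) lower, against 10.8% and 28.0% of all genes, so the share called lower was close to the background. Among the 37 brighter genes these shares were 24.3% higher and 29.7% lower, against 19.0% and 25.1% of all genes above the median level. For every gene given below with the value of each array, treated and untreated RT112 arrays did not overlap, ARNT excepted. Most of these genes were picked because they were called on both scales, which favours such separation. It is therefore no added support, and its share over all genes was not counted. On the deposited values alone 25 (62.5%) were called lower, against 74.2% of all genes. The median change of the 40 genes was -0.39 deposited and 0.26 centred, against -0.57 and 0.08 for all genes.

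**Figure D2:**
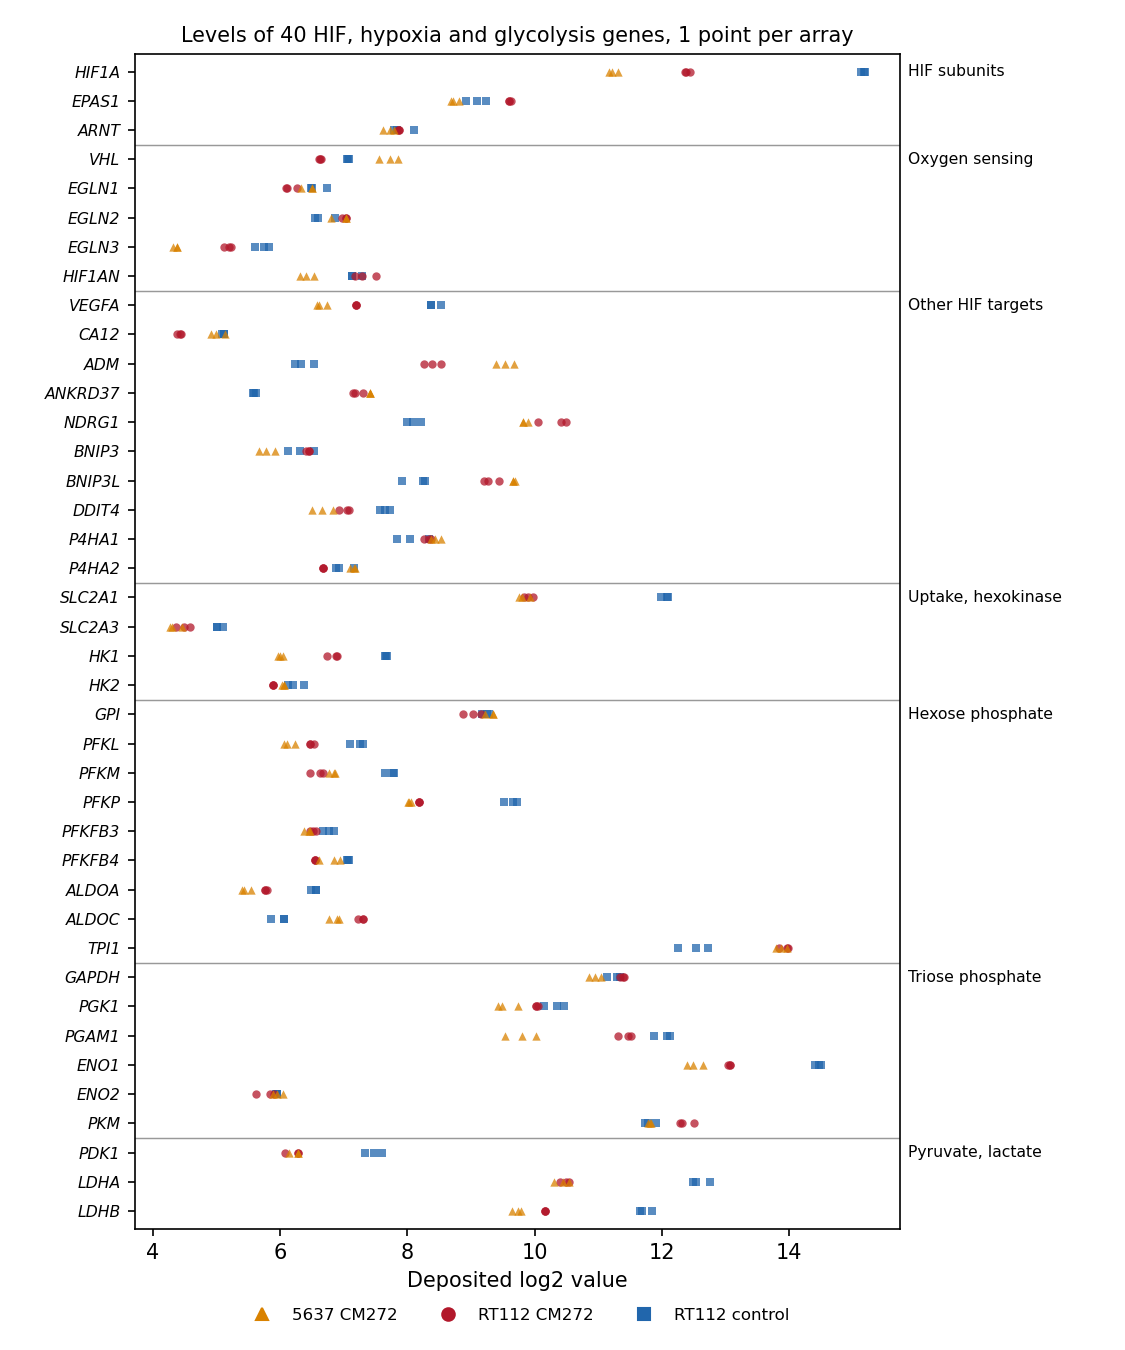
Deposited log2 value (horizontal axis) of each of the 40 genes (rows, grouped by role) in 3 arrays each of 5637 CM272 (triangles), RT112 CM272 (circles) and RT112 control (squares). HIF1A, SLC2A1, PFKP, ENO1, LDHA and LDHB lie lower in both treated groups than in RT112 control, and ADM, ANKRD37, NDRG1, BNIP3L, ALDOC and TPI1 lie higher in both.

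The upstream sequence of 7 of the 9 genes that changed by at least 2-fold is shown, with none for NDRG1 and BNIP3L, because HIF acts on its targets through hypoxia response elements, whose core is ACGTG or GCGTG. Each run is the 250 bases before an annotated start, from RefSeq on GRCh38.p14, read 5′ to 3′ along the gene. Capitals mark every ACGTG or GCGTG on either strand (CACGT and CACGC on the strand shown), and CACGTG, which holds both orientations and is also the E-box read by MYC and related factors, counts as 1 place. Where a gene has several annotated starts the window with the most places is given. The windows are chr14:61695263-61695512 on the plus strand for HIF1A, chr1:42958869-42959118 on the minus strand for SLC2A1, chr11:18394313-18394562 on the plus strand for LDHA, chr11:10304823-10305072 on the plus strand for ADM, chr4:185396591-185396840 on the plus strand for ANKRD37, chr17:28576896-28577145 on the minus strand for ALDOC and chr12:6867855-6868104 on the plus strand for TPI1.
HIF1A: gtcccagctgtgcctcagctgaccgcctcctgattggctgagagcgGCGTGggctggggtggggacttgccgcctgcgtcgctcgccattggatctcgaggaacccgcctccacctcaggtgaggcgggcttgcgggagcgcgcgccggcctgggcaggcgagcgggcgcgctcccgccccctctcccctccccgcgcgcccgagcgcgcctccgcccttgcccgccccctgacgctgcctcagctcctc
SLC2A1: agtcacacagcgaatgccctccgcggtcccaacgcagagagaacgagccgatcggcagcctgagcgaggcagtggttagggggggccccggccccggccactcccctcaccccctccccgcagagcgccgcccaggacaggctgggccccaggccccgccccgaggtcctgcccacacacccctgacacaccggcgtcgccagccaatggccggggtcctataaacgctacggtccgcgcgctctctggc
LDHA: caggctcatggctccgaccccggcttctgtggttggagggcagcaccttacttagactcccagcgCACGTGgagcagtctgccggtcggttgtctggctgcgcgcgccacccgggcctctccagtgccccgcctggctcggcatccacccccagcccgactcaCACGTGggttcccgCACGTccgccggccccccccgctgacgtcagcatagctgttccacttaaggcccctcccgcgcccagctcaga
ADM: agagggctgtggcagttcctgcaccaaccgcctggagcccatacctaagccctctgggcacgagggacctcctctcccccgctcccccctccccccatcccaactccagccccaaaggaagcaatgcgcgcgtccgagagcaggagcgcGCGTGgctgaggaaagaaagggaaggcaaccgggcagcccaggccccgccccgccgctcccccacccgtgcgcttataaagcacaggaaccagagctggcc
ANKRD37: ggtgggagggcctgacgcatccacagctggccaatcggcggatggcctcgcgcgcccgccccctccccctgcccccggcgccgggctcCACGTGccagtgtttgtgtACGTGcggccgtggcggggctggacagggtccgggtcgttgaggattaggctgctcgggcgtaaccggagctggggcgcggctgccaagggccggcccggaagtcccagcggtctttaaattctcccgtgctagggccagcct
ALDOC: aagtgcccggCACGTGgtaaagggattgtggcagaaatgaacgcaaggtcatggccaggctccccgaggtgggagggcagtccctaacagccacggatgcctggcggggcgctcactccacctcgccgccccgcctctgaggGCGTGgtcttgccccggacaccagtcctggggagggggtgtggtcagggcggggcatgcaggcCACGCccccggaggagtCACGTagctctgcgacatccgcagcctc
TPI1: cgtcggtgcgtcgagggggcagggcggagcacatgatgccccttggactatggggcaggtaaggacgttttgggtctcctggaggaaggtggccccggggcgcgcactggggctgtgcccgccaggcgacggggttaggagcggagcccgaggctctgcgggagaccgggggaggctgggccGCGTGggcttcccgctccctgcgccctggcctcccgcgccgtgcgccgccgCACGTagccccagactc

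The core letters did not separate the genes that rose from those that fell. LDHA, which fell, held 3 places, 2 of them CACGTG, and ALDOC, which rose, held 4, 1 of them CACGTG. ANKRD37 held 2 places, of which the CACGTG begins at base -162 from the start, TPI1 held 2, and ADM and HIF1A held 1 each. The SLC2A1 window held 0, which says only that these letters are not in it. Of 35 genes of the list with a window, 27 held at least 1 place: 6 of 7 called higher, 8 of 10 called lower and 13 of 18 not called. These counts use the window of each gene with the most places, and the same share over all genes was not counted. Per window the letters were found in 33 of 59 (55.9%) for these genes and in 15172 of 35116 (43.2%) for all RefSeq starts, and CACGTG in 15.3% and 6.35%. A match is a description and not a binding site.

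Among the HIF subunits, HIF1A and EPAS1 moved in opposite directions in RT112. HIF1A, the alpha subunit gene of HIF-1, had 12.38, 12.44 and 12.37 in treated RT112, against 15.20, 15.17 and 15.13 in untreated RT112. The groups lay far apart, and the change of -2.77 ± 0.05 (SE; adjusted p = 1.29e-08, limma) was -2.12 after centring and -2.70 after quantile normalization, or 6.82-fold lower as deposited and 4.36-fold lower after centring. Only 0.16% of all genes had a lower change. EPAS1, the alpha subunit gene of HIF-2, had 9.60, 9.60 and 9.63 in treated RT112, against 9.24, 9.10 and 8.93 in untreated RT112. Its treated arrays all lay above the untreated ones, and it rose by 0.52 ± 0.08 (adjusted p = 0.000222, limma) and by 1.17 after centring. ARNT, the shared partner, had 7.86, 7.86 and 7.86 in treated RT112, against 8.10, 7.79 and 7.84 in untreated RT112. These groups overlapped, and ARNT changed by -0.05 on the deposited values (adjusted p = 0.599, limma) and by 0.60 after centring (adjusted p = 0.000328), so it was not called.

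Of 5 oxygen-sensing genes, 1 was called higher (20%) and 0 lower, against 10.8% and 28.0% of all genes. VHL, the recognition subunit of the ligase that removes hydroxylated HIF, had 6.62, 6.61 and 6.64 in treated RT112, against 7.08, 7.06 and 7.05 in untreated RT112. Its treated arrays lay below the untreated ones, yet the change of -0.44 ± 0.07 was smaller than that of the median gene and became 0.21 after centring, so it was not called. EGLN2, which encodes a prolyl hydroxylase, had 7.04, 7.04 and 6.98 in treated RT112, against 6.86, 6.60 and 6.55 in untreated RT112. It rose by 0.35 ± 0.09 (adjusted p = 0.00708, limma) and by 0.99 after centring, and was the 1 gene of these 5 that was called. Its value 7.03516 was identical in treated RT112 replicates 1 and 2 and in treated 5637 replicates 2 and 3. The other hydroxylase genes EGLN1 (-0.42 deposited, 0.22 centred) and EGLN3 (-0.54 and 0.10) were not called. EGLN3, itself a well-known HIF target, had a level of 5.18 ± 0.06 in treated RT112 and 5.72 ± 0.11 in untreated RT112 (SD, n = 3 each). HIF1AN, the asparagine hydroxylase that blocks coactivator binding, changed by 0.15 and by 0.79 after centring and was not called.

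Of 10 measured HIF targets outside glycolysis, 4 rose (40%), 1 fell (10%) and 5 were not called. Of all genes, 10.8% were called higher and 28.0% lower. All 4 that rose did so by at least 2-fold on both scales, against 2.86% of all genes, and so small a set was not tested. NDRG1, a stress-response gene induced by hypoxia in many cell types, had 10.41, 10.05 and 10.49 in treated RT112, against 8.21, 8.09 and 7.99 in untreated RT112. It rose by 2.22 ± 0.11 (adjusted p = 3.08e-07, limma) and by 2.86 after centring, and 0.61% of all genes had a higher change. ADM, which encodes the vasodilator peptide adrenomedullin, had 8.52, 8.26 and 8.39 in treated RT112, against 6.33, 6.23 and 6.53 in untreated RT112. The groups were far apart, with a rise of 2.03 ± 0.11 (adjusted p = 4.18e-07, limma) and of 2.68 after centring. ANKRD37, an ankyrin-repeat gene and HIF-1 target, had 7.30, 7.14 and 7.18 in treated RT112, against 5.57, 5.59 and 5.62 in untreated RT112. It rose by 1.61 ± 0.05 (adjusted p = 5.02e-08, limma) and by 2.26 after centring, with the narrowest spread of the 4 in the untreated arrays. BNIP3L, a mitophagy receptor gene, had 9.43, 9.21 and 9.27 in treated RT112, against 8.27, 7.92 and 8.25 in untreated RT112. It rose by 1.16 ± 0.10 and by 1.81 after centring.

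VEGFA, the vascular growth factor gene and perhaps the best known HIF target, went the other way. It had 7.19, 7.19 and 7.19 in treated RT112, against 8.36, 8.37 and 8.53 in untreated RT112. It fell by 1.23 ± 0.06 on the deposited values (adjusted p = 2.64e-07, limma) and by 0.58 after centring, and its 3 treated RT112 values were exactly equal. The mitophagy gene BNIP3 changed by 0.12 and, after centring, by 0.77. The collagen prolyl hydroxylase genes P4HA1 and P4HA2 changed by 0.25 and -0.31, or 0.89 and 0.34 after centring. DDIT4, an inhibitor of mTOR signalling, changed by -0.63 and 0.01, close to the median gene on both scales. CA12, which encodes a surface carbonic anhydrase, changed by -0.69 and -0.04, and its treated level of 4.41 ± 0.03 lay below the median of the treated arrays, 4.43. None of these 5 was called in the same direction on both scales. P4HA2 had an adjusted p below 0.05 on both, lower as deposited (0.0033, limma) and higher after centring (0.00587, limma).

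**Figure D3:**
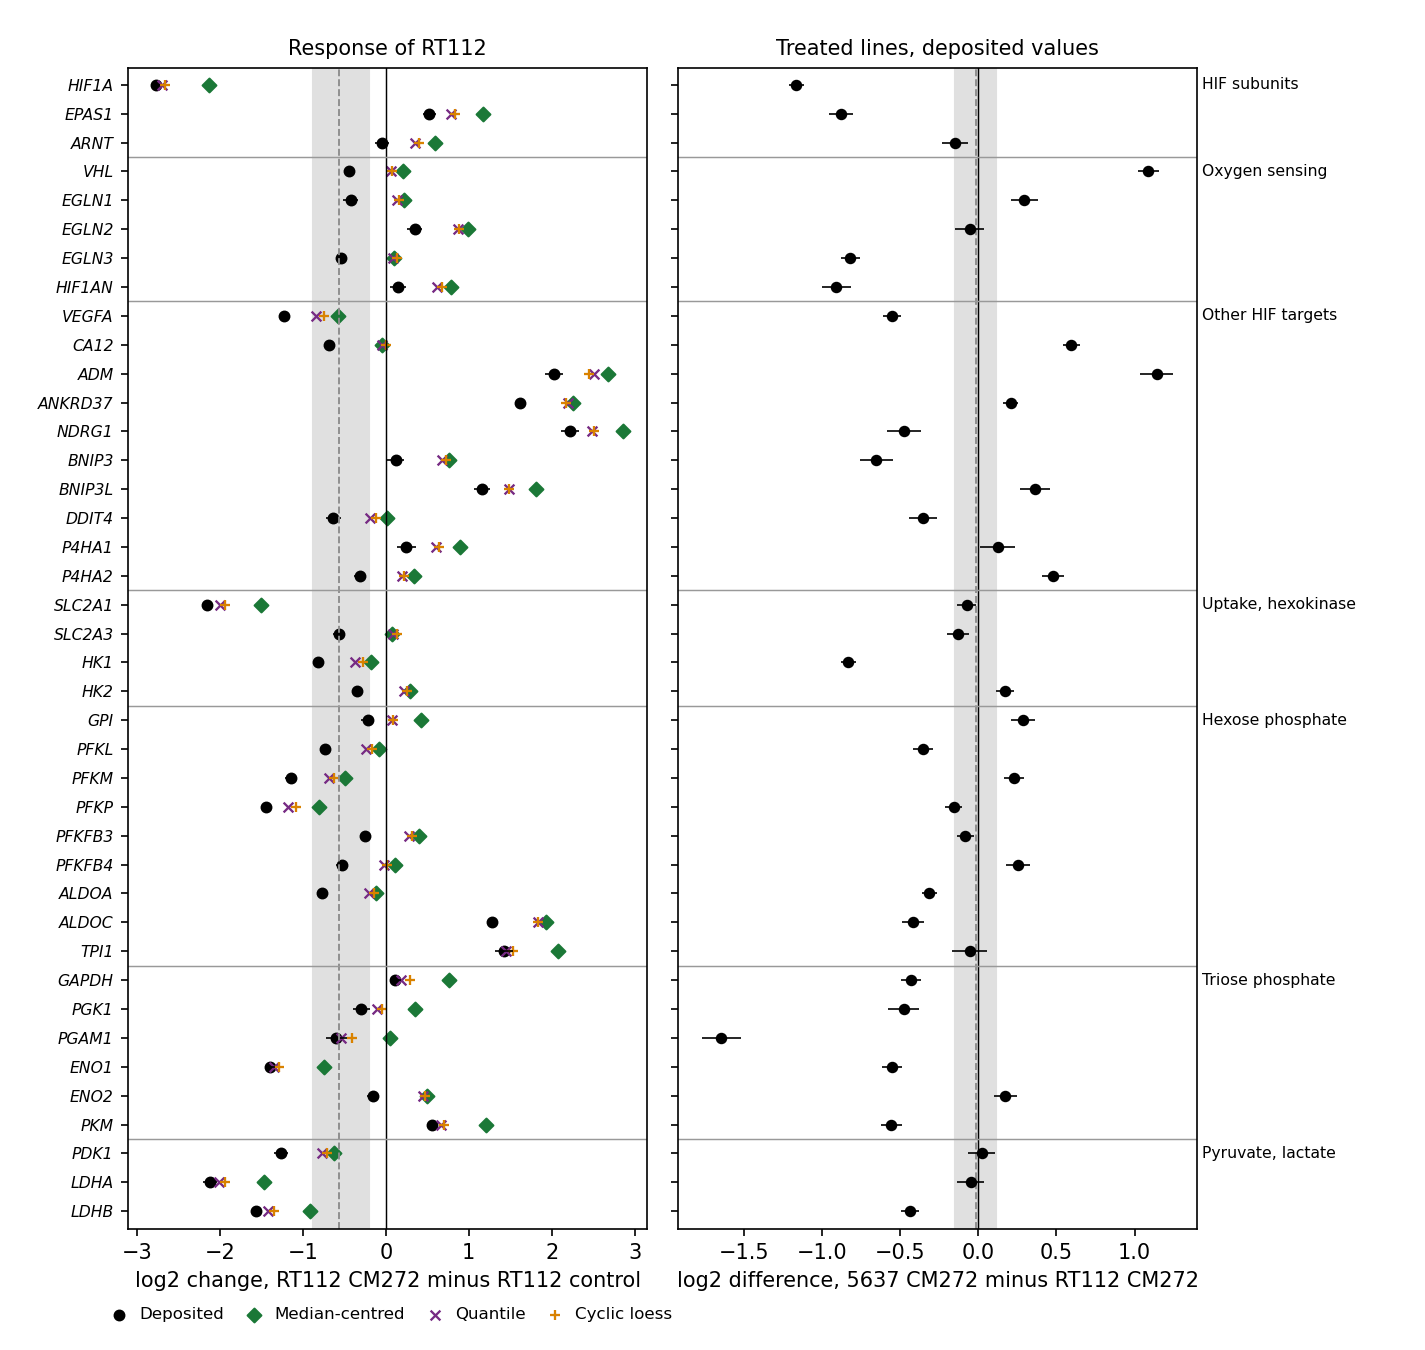
Left, log2 change of each gene (RT112 CM272 minus RT112 control) in 4 scalings, with bars of 1 SE on the deposited values. Right, deposited log2 difference (5637 CM272 minus RT112 CM272) with 1 SE. Grey bands hold the middle 50% of all genes and dashed lines mark their median on the deposited values, -0.57 at left. HIF1A, SLC2A1 and LDHA lie below -1 and ADM, NDRG1, ANKRD37, BNIP3L, ALDOC and TPI1 above 1 in every scaling at left.

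Of 4 genes of glucose uptake and phosphorylation, 2 fell (50%), against 28.0% of all genes. The transporter gene SLC2A1 fell most. SLC2A1, which encodes the main glucose transporter GLUT1 of many cancer cells, had 9.89, 9.98 and 9.83 in treated RT112, against 11.98, 12.07 and 12.10 in untreated RT112. It fell by 2.15 ± 0.06 (adjusted p = 4.62e-08, limma) and by 1.50 after centring, and 0.703% of all genes had a lower change. SLC2A3, the GLUT3 gene, lay at 4.47 ± 0.11 in treated RT112 and 5.04 ± 0.05 in untreated RT112 (SD, n = 3 each), near the array medians of 4.43 and 5.07. Its change of -0.57 matched the median gene and was 0.08 after centring. The hexokinases trap glucose inside the cell. HK1 was called lower, by -0.82 ± 0.05 deposited and -0.17 centred (adjusted p = 0.0201, limma), and HK2 changed by -0.35 and 0.29 and was not called.

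The hexose phosphate steps held both falls and rises. The 3 subunit genes of phosphofructokinase, which commits sugar to glycolysis, had negative changes on both scales, and 2 were called. The platelet-type subunit gene PFKP had 8.19, 8.19 and 8.19 in treated RT112, against 9.66, 9.52 and 9.72 in untreated RT112. It fell by 1.45 ± 0.05 (adjusted p = 8.73e-08, limma) and by 0.80 after centring, its 3 treated values being exactly equal. The muscle-type gene PFKM had 6.63, 6.68 and 6.47 in treated RT112, against 7.64, 7.77 and 7.79 in untreated RT112. It fell by 1.14 ± 0.07 and by 0.50 after centring, while the liver-type gene PFKL changed by -0.73 and -0.08 and was not called. PFKFB3 and PFKFB4, which set the level of the activator fructose 2,6-bisphosphate, changed by -0.25 and -0.53, or 0.40 and 0.12 after centring, and GPI, the isomerase gene, by -0.22 and 0.43. None of these 3 was called.

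The aldolase genes and TPI1 followed in the pathway. ALDOC, the brain-type aldolase gene, had 7.30, 7.31 and 7.22 in treated RT112, against 6.07, 6.05 and 5.86 in untreated RT112. It rose by 1.28 ± 0.07 (adjusted p = 4.82e-07, limma) and by 1.93 after centring. The widely expressed gene ALDOA was called lower, by -0.77 ± 0.05 deposited and -0.12 centred, the second only just (adjusted p = 0.0429, limma). With genes of equal replicates left out, the centred change of ALDOA had an adjusted p of 0.0808 (limma) and was not called. TPI1, which encodes triosephosphate isomerase, had 13.99, 13.85 and 13.96 in treated RT112, against 12.72, 12.26 and 12.54 in untreated RT112. It rose by 1.43 ± 0.11 (adjusted p = 3.92e-06, limma) and by 2.07 after centring. Similar pseudogene copies are known for TPI1, GAPDH, PGAM1, LDHA and other glycolytic genes, and probe sequences were not used here, so how far such copies add to these values is uncertain.

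From triose phosphate to pyruvate, ENO1 fell and PKM rose. ENO1, which encodes alpha-enolase, had 13.08, 13.04 and 13.08 in treated RT112, against 14.50, 14.40 and 14.47 in untreated RT112. It fell by 1.39 ± 0.06 (adjusted p = 1.95e-07, limma) and by 0.75 after centring. PKM, the pyruvate kinase gene, had 12.31, 12.29 and 12.50 in treated RT112, against 11.78, 11.90 and 11.73 in untreated RT112. Its treated arrays all lay above the untreated ones, and it rose by 0.56 ± 0.07 and by 1.21 after centring. The other 4 genes were not called: GAPDH changed by 0.12 and 0.76, PGK1 by -0.29 and 0.35, PGAM1 by -0.59 and 0.05, and the neuronal enolase gene ENO2 by -0.15 and 0.49. GAPDH, often used as a reference gene, lay at 11.38 ± 0.03 in treated RT112 and 11.26 ± 0.11 in untreated RT112 (SD, n = 3 each).

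All 3 measured genes of pyruvate and lactate handling fell, against 28.0% of all genes called lower, and so small a set was not tested. LDHA, the lactate dehydrogenase subunit that favours lactate formation, had 10.54, 10.49 and 10.41 in treated RT112, against 12.49, 12.53 and 12.76 in untreated RT112. It fell by 2.11 ± 0.09 (adjusted p = 1.34e-07, limma) and by 1.47 after centring. LDHB, the other subunit, had 10.17, 10.17 and 10.17 in treated RT112, against 11.70, 11.65 and 11.84 in untreated RT112. It fell by 1.56 ± 0.06 and by 0.92 after centring, with 3 equal treated values. PDK1, the kinase that keeps pyruvate out of the mitochondrial dehydrogenase, had 6.28, 6.28 and 6.07 in treated RT112, against 7.34, 7.48 and 7.60 in untreated RT112. It fell by 1.27 ± 0.08 (adjusted p = 1.62e-06, limma) and by 0.62 after centring.

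Related genes of 1 step were also compared by their log2 difference within each array. A shift that is equal for all genes of an array cancels there, while a shift that depends on level does not. The difference itself mixes 2 probe sets and is no level, so its change between groups is given. Of 13 measured pairs, 12 had treated and untreated RT112 arrays that did not overlap. Each of these had an exact two-sided permutation p of 0.1, the smallest that 3 against 3 arrays allow, so no pair could pass 0.05. How often other pairs of genes separate in the same way was not counted, so the 12 only describe these pairs. The widest change was that of EPAS1 minus HIF1A, with a shift of 3.29 ± 0.08 (SE) toward EPAS1 in treated RT112. ALDOC minus ALDOA shifted by 2.05, SLC2A3 minus SLC2A1 by 1.58, ENO2 minus ENO1 by 1.24 and BNIP3L minus BNIP3 by 1.04. These 5 were the pairs that shifted by 1 or more on the deposited values. With cyclic loess the shifts were 3.49 for EPAS1 minus HIF1A, 1.98 for ALDOC minus ALDOA and 2.07 for SLC2A3 minus SLC2A1. ENO2 minus ENO1 then shifted by 1.76 and BNIP3L minus BNIP3 by 0.76, leaving 4 pairs at 1 or more. LDHA minus LDHB shifted by -0.55 ± 0.06, so LDHA fell further than LDHB in these arrays. PFKP minus PFKL shifted by -0.72, PFKM minus PFKL by -0.41 and HK2 minus HK1 by 0.47. The remaining non-overlapping pairs shifted by 0.77 for EGLN2 minus EGLN1, -0.56 for P4HA2 minus P4HA1 and -0.28 for PFKFB4 minus PFKFB3. EGLN3 minus EGLN1 overlapped between the groups, with a shift of -0.12 and an exact permutation p of 0.5.

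**Figure D4:**
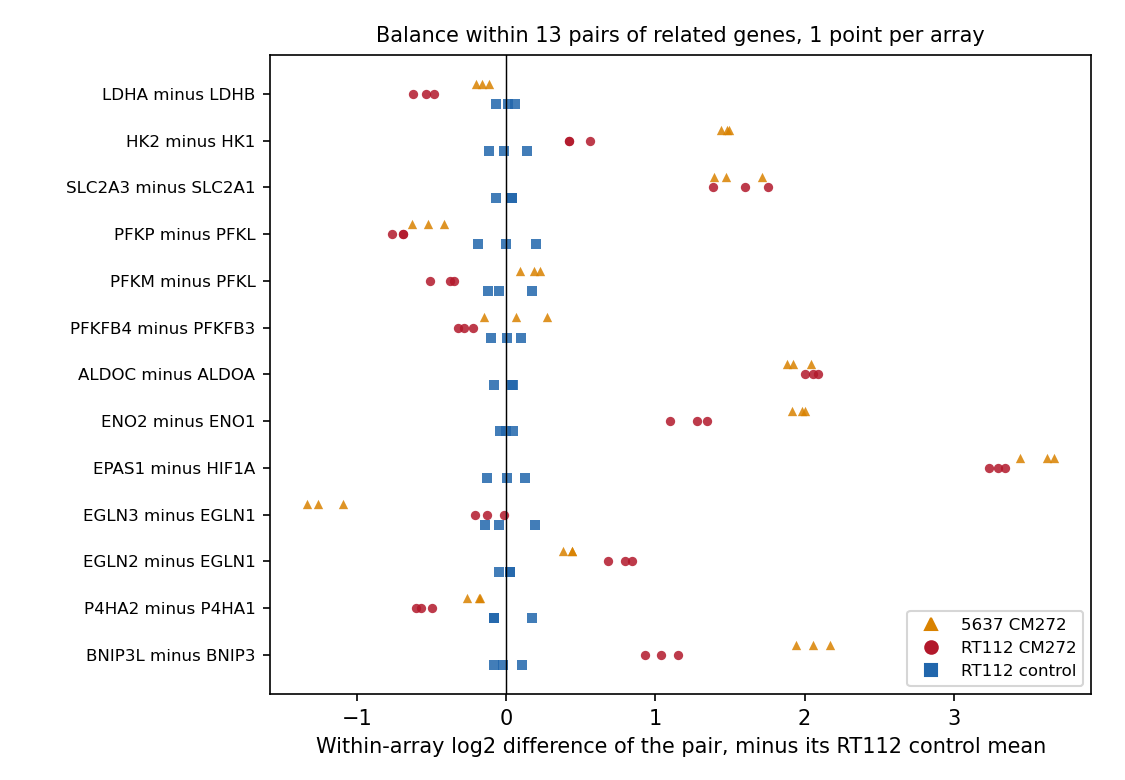
Difference in log2 value between 2 related genes within an array, less the mean of that difference in RT112 control (horizontal axis), for 13 pairs (rows) in 3 arrays each of 5637 CM272 (triangles), RT112 CM272 (circles) and RT112 control (squares). EPAS1 minus HIF1A lies above 3 in all treated arrays of both lines, and 12 of 13 pairs separate RT112 CM272 from RT112 control. The share of other gene pairs that separate was not counted.

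Treated 5637 was set beside treated RT112, a difference between 2 treated lines that shares its RT112 arrays with the comparison above and is no response. The collagen genes COL1A1 and COL1A2, 2 of 5 stromal markers, were higher in treated 5637 than in treated RT112 by 1.90 ± 0.05 and 1.02 ± 0.05, and the other 3 were not called. The part of stromal markers in the differences below was not tested. In this comparison 10 of 40 genes (25%) were called higher in 5637 and 18 (45%) lower, against 17.1% and 13.7% of all genes. Among the 37 genes above the median level, 9 (24.3%) were called higher and 17 (45.9%) lower, against 27.7% and 23.9% of all genes above it, so the share called higher was near the background of equally bright genes. Without replicate 2 or 3 of either group, left out 1 at a time, 6 were called higher. At 2-fold or more 4 genes (10%) differed, against 6.78% of all genes, and among the 37 brighter genes these 4 were 10.8%, against 12.4% of all genes above the median level, a share near the background. HIF1A had 11.17, 11.31 and 11.21 in treated 5637, against 12.38, 12.44 and 12.37 in treated RT112, a difference of -1.16 ± 0.05 (adjusted p = 6.03e-07, limma). After cyclic loess it was -0.98, short of 2-fold, which left 3 genes at that size. PGAM1, the phosphoglycerate mutase gene, had 9.53, 9.81 and 10.02 in treated 5637, against 11.46, 11.31 and 11.52 in treated RT112, a difference of -1.65 ± 0.12. Both were lower in 5637 with no overlap.

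The other 2 genes at that size were higher in 5637. ADM had 9.39, 9.53 and 9.68 in treated 5637, against 8.52, 8.26 and 8.39 in treated RT112, a difference of 1.14 ± 0.11 (adjusted p = 5.8e-05, limma). VHL had 7.56, 7.85 and 7.73 in treated 5637, against 6.62, 6.61 and 6.64 in treated RT112, a difference of 1.09 ± 0.07. EPAS1 was lower in 5637 by 0.88, HIF1AN by 0.91, HK1 by 0.83 and EGLN3 by 0.82. Several genes that had moved strongly in RT112 had near-equal levels in the treated lines. SLC2A1 had 9.76, 9.92 and 9.81 in treated 5637, against 9.89, 9.98 and 9.83 in treated RT112, a difference of -0.07 ± 0.06 (adjusted p = 0.446, limma). The difference was -0.05 ± 0.09 for LDHA, -0.06 ± 0.11 for TPI1 and 0.02 ± 0.08 for PDK1, and none of these 4 was called. LDHA had the identical value 10.5437 in treated RT112 replicate 1 and treated 5637 replicate 2. PDK1 had 6.27546 in treated RT112 replicates 1 and 2 and in treated 5637 replicate 2. SLC2A1 and TPI1 shared no value between the lines. A p above the threshold does not show that the lines are alike, and the part of the identical values of treated arrays in these small differences was not tested.

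Of 90 further pathway genes on 5 lists, 81 were measured, and in RT112 the calls came to 13 higher (16%) and 24 lower (29.6%), against 10.8% and 28.0% of all genes, so the share called lower was close to the background. At 2-fold or more on both scales 5 of the 81 rose (6.17%) and 2 fell (2.47%), against 2.86% and 2.64% of all genes. The share that fell was again close to the background. Among 30 further HIF targets 5 rose (16.7%) and 7 fell (23.3%), the second share below that of all genes. CITED2, which competes with HIF for its coactivators, rose by 2.15 ± 0.12 (2.79 centred), the ubiquitin ligase gene WSB1 by 1.59 ± 0.12 (2.24) and the glycogen synthase gene GYS1 by 1.21 ± 0.10 (1.85). EGFR fell by 2.78 ± 0.08, with a centred change of -2.14. Among 13 HIF partners and turnover genes 5 rose (38.5%) and 4 fell (30.8%). Among the rises were OS9, which encodes an endoplasmic reticulum lectin, by 2.00 ± 0.09 (2.64 centred) and the coactivator gene CREBBP by 1.04 ± 0.06 (1.68). Of 21 isozymes and side enzymes of glycolysis 1 rose (4.76%) and 9 fell (42.9%), and among the falls the hexokinase-like gene HKDC1 changed by -1.94 ± 0.09 (-1.30 centred). Only 8 of these 21 lay above the median level of all genes, and the part of low levels in the falls was not tested. Of 12 genes of pyruvate entry into mitochondria 2 rose (16.7%) and 3 fell (25%). Of 5 pentose phosphate genes 0 rose and 1 fell (20%). The 1 that fell was the transketolase gene TKT, by 1.54 ± 0.10 and by 0.89 after centring (adjusted p = 3.95e-05, limma).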

How the data were processed

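Total RNA was measured on Affymetrix whole-transcript arrays. The values are log2 signals of 70523 probe sets on 12 arrays, which the authors deposited together. Per the submitters' processing notes they come from RMA and Affymetrix Expression Console, with no version or build named, and whether a further transformation set a scale that reaches 19.93 is not known.

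GEO's platform annotation gave 1 symbol to 23781 rows, several to 1543 and none to 45199. The brightest row per gene over 9 arrays was used, and each of the 40 genes had 1 row. limma 3.58.1 in R 4.3.3 fitted group means of 3 groups (lmFit and eBayes, 6 residual degrees of freedom) with Benjamini-Hochberg adjustment over 22465 genes, on deposited values and on values centred on array medians. In a check on simulated data for RT112 with 22465 genes, the fit recovered 95% of 100 genes changed by 1 on the log2 scale and 60% of 100 changed by 0.5, with 13 unchanged genes called. The simulated arrays had independent normal noise, no shift between groups and no equal replicates, and calls used 1 scale. These rates therefore check the fit and do not carry over to the calls on both scales. Alternatives were quantile normalization, cyclic loess, a filter on dim genes, leaving out genes with equal replicates, averaged probe sets, 6 arrays, a variance trend, a replicate block and leaving out each array. Fitting the deposited values alone was added after seeing the data.

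The genes and lists were chosen with earlier results of these data known. All 40 genes could be named. Values of every array are given for genes changed by at least 2-fold on both scales, for up to 6 of the largest other called changes in each direction by centred change, and for HIF1A, EPAS1, ARNT and VHL. From the other lists, genes with a 2-fold call in RT112 are named, and TKT beyond that rule. The number of arrays limits the precision.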

Additional observations from a re-analysis of the deposited data

How the results depend on the processing

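The number of members called at 2-fold in RT112 was 9 in every fit that left out 1 array. Without the demand for both scales, the deposited values alone called 19093 of all genes, 25 members lower and 15 members at 2-fold, against 8718, 11 and 9 with it. Calls on 1 scale came to 15222 genes and 21 members higher after centring, 15293 and 18 after quantile normalization and 15233 and 18 with cyclic loess, against 9 members higher. Among genes above the median level 4941 were called, fewer genes being tested. Without genes with equal replicates 7 members were called lower, since VEGFA, PFKP and LDHB were dropped by construction and ALDOA was no longer called. ANKRD37, whose treated 5637 values were equal, was dropped as well, which left 8 members called higher and 8 at 2-fold. In RT112 the direction of some changes that were negative as deposited turned positive. After centring these were ARNT 0.60, VHL 0.21, EGLN1 0.22, EGLN3 0.10, DDIT4 0.012, P4HA2 0.34, SLC2A3 0.079, HK2 0.29, GPI 0.43, PFKFB3 0.40, PFKFB4 0.12, PGK1 0.35, PGAM1 0.051 and ENO2 0.49. After quantile normalization they were ARNT 0.35, VHL 0.060, EGLN1 0.13, EGLN3 0.083, P4HA2 0.20, SLC2A3 0.081, HK2 0.23, GPI 0.075, PFKFB3 0.28 and ENO2 0.45. With cyclic loess they were ARNT 0.40, VHL 0.074, EGLN1 0.16, EGLN3 0.14, CA12 0.0030, P4HA2 0.22, SLC2A3 0.13, HK2 0.26, GPI 0.089, PFKFB3 0.32, PFKFB4 0.016 and ENO2 0.47. With 1 array left out ARNT ranged over -0.11 to 0.047, above 0 without untreated RT112 replicate 1. None of these genes was called in the same direction on the deposited and centred scales. VHL, P4HA2, HK2, GPI, PFKFB3 and PGK1 did have an adjusted p below 0.05 (limma) on both, lower as deposited and higher after centring. For these genes the scaling set the direction. Between the treated lines the direction turned for TPI1 0.16, PDK1 -0.019 and LDHA 0.051 after quantile normalization and for SLC2A1 0.073, TPI1 0.13 and LDHA 0.12 with cyclic loess. With 1 array left out it turned for EGLN2 (-0.095 to 0.019) and LDHA (-0.10 to 0.012) without 5637 replicate 1, and for PDK1 (-0.048 to 0.067) without 5637 replicate 2 or 3 or treated RT112 replicate 3. With 1 array left out, the members called higher in 5637 numbered 6 to 9, those called lower 17 to 18, the members called in RT112 9 to 10 in each direction, and the pairs without overlap 12. With cyclic loess 7 of 13 pair shifts moved by more than the SD between replicates, and 4 pairs reached 1, as also without treated RT112 replicate 1 or untreated RT112 replicate 1.

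Same-numbered replicates did not deviate together (r between -0.09 and 0.04 over genes), and the main fit did not pair them. The labels do not say whether same-numbered arrays were matched, and these r values cannot settle it. With a replicate block, 10 members were called higher and 10 lower in RT112 among 8434 genes, and 8 higher and 17 lower between the treated lines.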

Other observations

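A difference noticed in these values concerned the pentose phosphate genes. Of 5 measured, 3 were called lower by at least 2-fold in treated 5637 than in treated RT112. Of all 22465 genes, 599 were lower at 2-fold and 6.78% differed at 2-fold in either direction. Among genes above the median level, where 4 of the 5 lay, the share in either direction was 12.4%. PGLS was called higher, by 0.21 ± 0.04 (adjusted p = 0.00692, limma), and RPIA, with -0.07 ± 0.06, was not called. TKT, the transketolase gene, averaged 6.04 ± 0.10 in treated 5637 and 8.22 ± 0.09 in treated RT112 (SD, n = 3 each), a difference of -2.18 ± 0.10 (SE; adjusted p = 1.14e-06, limma). The difference was -1.99 ± 0.08 for the transaldolase gene TALDO1, whose 3 treated RT112 values were equal, and -1.41 ± 0.06 for PGD, whose 3 treated 5637 values were equal. Among glycolysis side genes BSG, which encodes the chaperone of lactate transporters, was higher in 5637 by 1.52 ± 0.11. Of the further HIF targets, the lysyl oxidase-like gene LOXL2 was higher by 2.00 ± 0.08 and BHLHE40, a transcription repressor gene, was lower by 1.49 ± 0.10.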
